A study of Mus musculus with 12 samples.

Results

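Myelin genes of mature oligodendrocytes were followed through RNA, ribosome footprints and tagged polysomes of the mouse brain. The 9 genes are Mog, Mbp, Mobp, Mag, Cnp, Mal, Ermn, Ugt8a and Tspan2. They were chosen by name for their place in the myelin sheath, with earlier results of these data known. All of them are among the 20504 genes of the coding sequence (CDS) count table and the 23352 genes of the exon count table. The study measured translation in the brain with a ligation-free form of ribosome profiling, which sequences the mRNA fragments that ribosomes protect. It comprises 12 libraries from 6 adult mice. All of these mice carry a Camk2a-driven Cre recombinase and the RiboTag allele, in which Cre replaces the last exon of the ribosomal protein gene Rpl22 with an exon that ends in an HA tag, so that excitatory neurons of the forebrain, and not oligodendrocytes, are the cells meant to hold tagged ribosomes.

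Mice A and B are untreated according to the labels and received vehicle by gavage according to the study's methods, and they are called vehicle here. Mice C and D received 100 mg/kg of AZD-8055, an ATP-competitive inhibitor of the mTOR kinase, 1 h before the tissue was taken. Each of these 4 mice gave an RNA-Seq library and a ribosome footprint library. Mice E and F were untreated and each gave an RNA-Seq library of brain homogenate (input) and another of the polysomes pulled down with an antibody to HA (IP). Every comparison therefore rests on 2 mice per group, and libraries with the same mouse letter share an animal. All 9 genes passed the filter on low counts (a mean of 37 counts in the libraries compared) in every test. The libraries held 3503873 to 15585831 CDS counts, and the 8 RNA-Seq libraries held 16796999 to 27878212 exon counts.

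Oligodendrocytes wrap axons of the central nervous system in many layers of membrane, which insulate the axon and speed conduction. In compact myelin the cytoplasm between layers is squeezed out and the faces are held together by small basic proteins, chiefly the product of Mbp and also that of Mobp. Both of these mRNAs are known to be carried along oligodendrocyte processes and translated near the sheath. Mag and Mog encode immunoglobulin-family proteins of the innermost and the outermost surface of the sheath. Cnp encodes a cyclic nucleotide phosphodiesterase of the cytoplasmic channels, and Ermn encodes ermin, which binds actin. Ugt8a encodes the enzyme that makes galactosylceramide, a main lipid of myelin, while Mal encodes a raft proteolipid of membrane traffic and Tspan2 a tetraspanin.

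The genes lie apart in the genome, on 6 chromosomes for the 8 whose positions are given here. In the GRCm38 (mm10) build of RefSeq, Ermn spans chr2:58045115-58052864 on the minus strand, and Mal spans chr2:127633226-127656695 on the minus strand. Tspan2 lies at chr3:102734770-102772310 on the plus strand and Ugt8a at chr3:125865272-125938682 on the minus strand. Mag spans chr7:30899175-30914922 on the minus strand, Mobp chr9:120149742-120181488 on the plus strand, Cnp chr11:100574909-100591875 on the plus strand and Mog chr17:37010740-37023398 on the minus strand.

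RefSeq promoters of 250 bases before and 50 bases after each start were given for 8 of the members, 11 promoters in all. They were searched on both strands for ACAAAG, whose reverse complement is CTTTGT, a core that transcription factors of the SOX family recognize; SOX10 is the family member that oligodendrocytes depend on. The motif was in 5 of the 11 promoters, those of 4 members (Mag, Mobp, Cnp and Tspan2), against 18.7% of the 32851 promoters in the table. The matches of both Mag promoters are the same genomic site, seen from different starts. The windows below, from Mag, Mobp and Cnp, show a match in capitals with the bases around it, 5′ to 3′ on the strand of the gene, and are given to show how the match is placed in unlike sequence.
Mag: tgacaagggcccCTTTGTgcccccctcccc
Mobp: actctgtgtggcCTTTGTgcgggcctttgt
Cnp: aacttttaaggaACAAAGaggtggcgtggc
The Mag window is chr7:30914972-30915001 (minus strand), the Mobp window chr9:120149598-120149627 (plus strand) and the Cnp window chr11:100574760-100574789 (plus strand). In Mobp the motif occurred 6 times in the promoter, each time as CTTTGT on the strand of the gene, and 0.00304% of all promoters, which is that of Mobp alone, held as many. A match of these letters is a description of the sequence, and binding was not measured.

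The RiboTag comparison set the level of each mRNA among tagged polysomes of Camk2a-expressing neurons against its level in input. Input and IP counts were each scaled to the typical gene. A percentage of input is therefore relative to other genes and is not the fraction of an mRNA recovered. All 9 myelin genes were lower in IP than in input. Their IP level ranged from 8.83% of input for Mag to 23.5% for Mbp (mean of mice E and F on the log scale, exon counts over DESeq2 size factors). Neuronal markers went the other way, with the summed count of 10 excitatory neuron genes at 203% of input in mouse E and 204% in mouse F, where the sum of the 9 myelin genes stood at 19.1% and 20.0%. Rpl22, the tagged gene, had log2 enrichments of 0.94 and 0.81 in mice E and F, and Camk2a had 0.45 and 0.32.

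Among the surface proteins, Mag had 3132 normalized exon counts in the input of mouse E and 229 in its IP, and 2911 and 310.1 in mouse F. Mog had 949 and 104 in mouse E and 1142 and 209.8 in mouse F. Input and IP did not overlap for either gene, and Mog was the member whose 2 mice differed most, with IP at 10.9% of input in mouse E and 18.4% in mouse F.

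Of the compact myelin genes, Mbp was the least depleted member on exon counts and Mobp lay in the middle of the list. Mbp had 35150 normalized exon counts in the input of mouse E against 8005 in IP, and 28850 against 6978 in mouse F. Mobp had 4729 against 726 in mouse E and 3666 against 597 in mouse F. Mbp thus kept 22.8% and 24.2% of its input level in IP and Mobp 15.3% and 16.3%. Counts per gene do not separate the classic Mbp transcripts from the longer golli transcripts of the same locus, which other cell types also make.

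Ermn fell from 889 normalized exon counts to 86.6 in mouse E and from 979 to 104 in mouse F. Ugt8a had 1008 against 93.2 in mouse E and 1255 against 149 in mouse F, and Mal had 4582 against 501 and 4561 against 515. These cytoskeletal, lipid and raft genes kept about the same small share of input, from 9.24% for Ugt8a in mouse E to 11.9% for Ugt8a in mouse F. Cnp had 5119 against 866 in mouse E and 5324 against 935 in mouse F, while Tspan2 had 2567 against 465 and 2825 against 504. In these last genes the share kept differed little between mice, at 16.9% and 17.6% for Cnp and 18.1% and 17.8% for Tspan2. The share kept was higher in mouse F than in mouse E for 8 of the 9 genes.

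**Figure D1:**
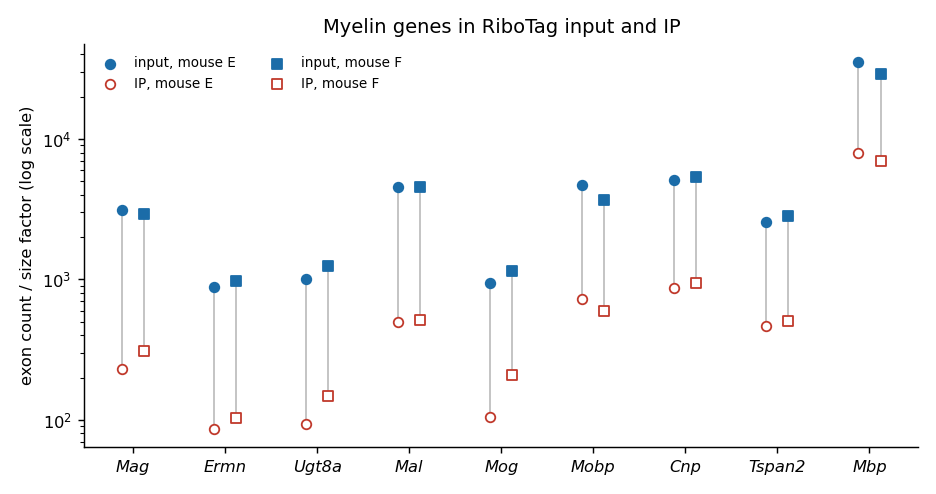
Exon counts over DESeq2 size factors (log scale) of the 9 myelin genes in input (filled) and IP (open) of mice E (circles) and F (squares), with a line joining the libraries of a mouse. Every IP value lies below its input, by the widest margin for Mag, with a mean of 8.83% of input, and the narrowest for Mbp, with 23.5%.

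In edgeR's quasi-likelihood test across 13254 genes, all 9 were called lower in IP (Benjamini-Hochberg adjusted p below 0.05 and a fold over 2). Of all genes tested, 21.8% were called lower and 11.7% higher. The log2 changes ran from −3.60 (standard error 0.16, adjusted p = 5.49e-05) for Mag to −2.21 (standard error 0.13, adjusted p = 7.37e-05) for Mbp. In between lay Ermn (−3.41), Ugt8a (−3.33), Mal (−3.29), Mog (−2.84), Mobp (−2.78), Cnp (−2.65) and Tspan2 (−2.59). The median of the members was −2.84, against −0.034 over all genes tested. All 9 calls were also made by DESeq2's Wald test and when any of the 4 libraries was left out. The size moved most for Mog, to −3.43 without the IP library of mouse F and to −2.39 without that of mouse E.

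Most other genes of the lineage were lower in IP as well. Of 46 other oligodendrocyte genes tested, 32 were called lower in IP and none higher, with a median log2 change of −2.24. Among 14 other membrane and junction genes 10 were lower, Cd9 most (−3.34), and among 10 lipid and metabolite enzymes 6 were lower, most of all Aspa (−3.66), which breaks down N-acetylaspartate. Among 14 other mature oligodendrocyte genes 10 were lower, with Trf (transferrin) at −3.43, and of 8 transcription factors 6 were lower, with Myrf, the myelin regulatory factor, at −3.57. The exceptions with the highest values were Gpd1 (0.77), Omg (0.55) and Tppp (0.49), none of which passed the fold limit. Counts of such genes, which IP did not deplete, are part of the sums of their lists. As a sum, the membrane and junction genes stood at 59.2% and 65.7% of input in mice E and F, the lipid and metabolite enzymes at 83.0% and 80.8%, the other mature oligodendrocyte genes at 76.3% and 77.1% and the transcription factors at 32.5% and 34.4%, all above the sum of the 9 members. Precursor markers were lower for 8 of 10 genes (median −2.58), astrocyte markers for 9 of 10 (−2.90), microglia markers for 9 of 10 (−3.20) and endothelial markers for 8 of 8 (−3.66). Summed, the precursor markers stood at 17.7% and 22.0% of input in mice E and F, close to the sum of the 9 members. The astrocyte markers stood at 19.0% and 20.8%, the microglia markers at 12.1% and 12.7% and the endothelial markers at 8.76% and 13.1%. Of the excitatory neuron markers 5 of 10 were higher (median 0.98). Most genes of each non-neuronal list were thus lower in IP, as the myelin genes were.

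The exon and CDS tables gave different sizes for the same depletion. On CDS counts the mean log2 enrichment was lower than on exon counts for 5 of 9 genes, by the most for Ugt8a (−4.42 against −3.26), which rests on 7 CDS counts in the IP of mouse E and 27 in that of mouse F. Ermn gave −4.06 against −3.30, from 12 CDS counts in each IP library, and Tspan2 gave −3.16 against −2.48. For Mag, the CDS value was the less negative (−3.18 against −3.50). The order of the members in IP therefore depended on the table. On CDS counts Cnp (−2.46) and Mobp (−2.49) were less depleted than Mbp (−2.60), and Ugt8a rather than Mag was lowest. Small IP counts limit the precision of the CDS values of genes such as Ugt8a and Ermn.

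The ratio of exon to CDS counts differed widely among the members, although neighbours such as Mog and Cnp or Mal and Tspan2 overlapped. Exon counts take in the untranslated regions as well as the CDS, so a gene with long untranslated regions has a high ratio. Over the 6 homogenate libraries the median log2 ratio was 0.28 for Mag, with a range of 0.27 to 0.30, and 2.46 for Tspan2, with a range of 2.12 to 2.51. Mal (2.43) and Mbp (2.07) were close to Tspan2, while Mog (0.81), Cnp (0.83) and Mobp (1.04) were nearer to the median of 12195 genes (0.59), and Ugt8a (1.37) and Ermn (1.64) lay in between. In the IP libraries the ratio was higher for all 9 genes than in any homogenate library, reaching 2.98 and 3.02 for Mbp and 3.20 and 3.68 for Tspan2. Of 12168 genes, 68.5% had both IP ratios above all homogenate ratios, so the direction of the shift was shared with most genes. The median over genes was 0.59 in homogenate and 0.93 in IP. This step was smaller than those of Mbp, Mal, Tspan2, Ermn and Ugt8a, while those of Mog, Mobp and Cnp were nearer to it. For Mag the IP ratios were 0.41 and 0.46, close to its homogenate range.

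**Figure D2:**
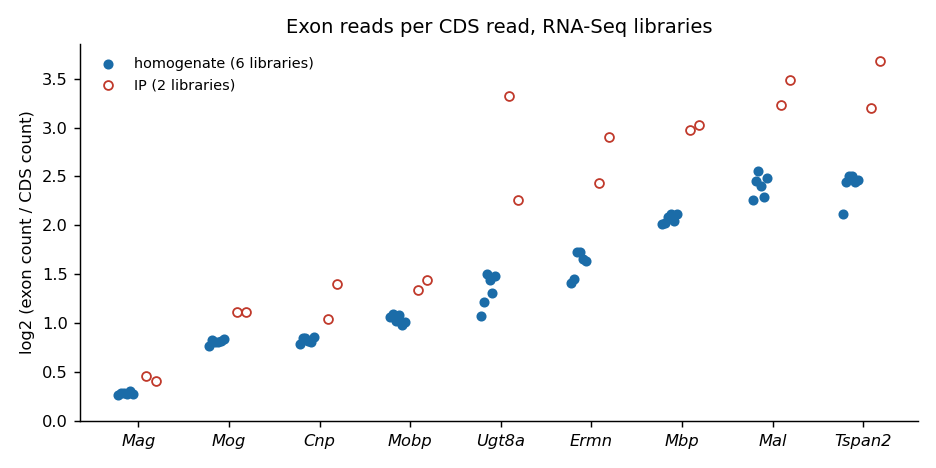
Log2 ratio of exon to CDS counts of each myelin gene, with 6 homogenate RNA-Seq libraries (filled) and 2 IP libraries (open). The genes span from 0.28 (Mag) to 2.46 (Tspan2) in the homogenate medians, and both IP points lie above the homogenate points for each gene.

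Translation efficiency (TE) is the footprint count of a gene over its RNA-Seq count, here on CDS counts over DESeq2 size factors. RNA-Seq counts rise with the length of the CDS. Between genes, TE therefore stands for ribosomes per length of CDS and not for the number of ribosomes on a transcript. Within the myelin list it spanned a wide range. In vehicle mice the mean log2 TE ran from 1.68 ± 0.093 (SD, n = 2) for Tspan2 to −1.44 ± 0.051 for Mobp, a distance of 3.12. In fold terms the TE of Tspan2 was 8.12 times that of Mobp in mouse A and 9.36 times in mouse B. The SD over the 9 genes (1.02) was close to that over all 10882 genes with a TE (0.99), and 5 members lay above the median of all genes (0.016) and 4 below.

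The proteins of compact myelin and of its surfaces made up the lower part of the order. Mobp had 1576 and 1990 RNA-Seq counts in mice A and B but only 536 and 313 footprints, which gave a log2 TE of −1.41 and −1.48. Mbp had 8647 and 9939 RNA-Seq counts and 5468 and 2974 footprints, for a log2 TE of −0.51 and −0.55. The mice differed by less than 0.1 for each of these genes. Ranked among all genes, Mobp stood at the 8.13 percentile and Mbp at the 28.1 percentile. Mag followed at −0.34 and −0.29 and Mog at −0.013 and −0.33.

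The upper part held the cytoskeletal gene, the lipid enzyme and the tetraspanin. Tspan2 had 409 and 492 RNA-Seq counts against 1130 and 724 footprints, for a log2 TE of 1.61 and 1.75, at the 96.7 percentile of all genes. Ermn had 358 and 404 RNA-Seq counts against 852 and 436 footprints, for 1.40 and 1.30. Ugt8a had 326 and 406 against 824 and 397, for 1.49 and 1.16. These lay at the 93.8 and 93.5 percentiles. Cnp (0.51 and 0.23) and Mal (0.48 and 0.16) lay in the middle, above the median of all genes in both mice. The TE was higher in mouse A than in mouse B for 7 of 9 genes, by up to 0.33.

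**Figure D3:**
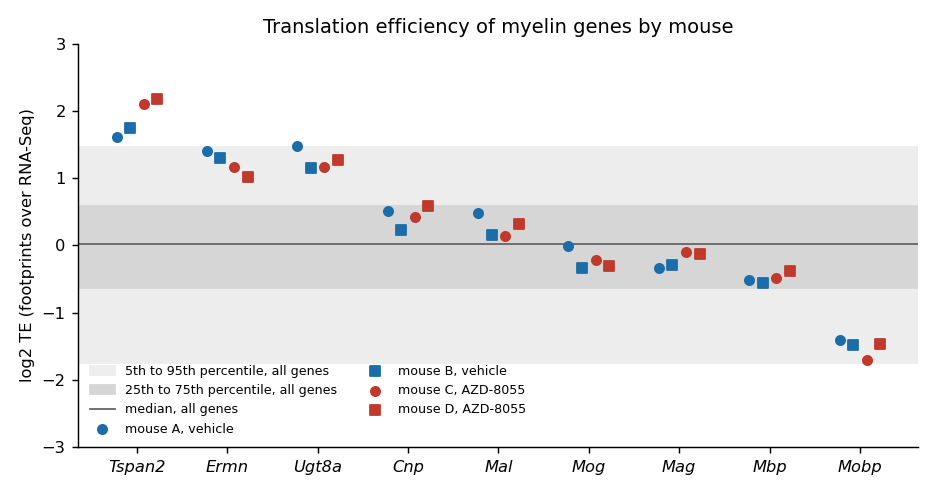
Log2 TE of the 9 myelin genes in mice A and B (vehicle, blue) and C and D (AZD-8055, red); the line is the median, the inner band the interquartile range and the outer band the 5th to 95th percentiles of 10882 genes in vehicle mice. Tspan2 lies above the outer band in all 4 mice and Mobp near its lower edge, with the surface proteins Mog and Mag in the middle.

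Several steps of this order, which was set by the mean of mice A and B, held in each mouse with footprints. Only mice C and D, which received AZD-8055, are separate from that choice of order. Tspan2 exceeded Ermn, Ugt8a exceeded Cnp, Mal exceeded Mog, Mag exceeded Mbp and Mbp exceeded Mobp in all 4 mice, with vehicle values that did not overlap. Cnp exceeded Mal in all 4 mice too, but by only 0.029 and 0.076 in the vehicle mice, whose values overlapped. Ermn and Ugt8a could not be ordered, since Ermn was higher in 1 of 4 mice, and the same held for Mog and Mag. The step from Mbp to Mobp, the basic proteins of compact myelin, was 0.89 and 0.93 in mice A and B and 1.22 and 1.08 in mice C and D.

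In edgeR's quasi-likelihood test of footprints against RNA-Seq in vehicle mice, 5 members had a TE above the typical gene and 3 below it (adjusted p below 0.05). Of the 11891 genes tested, 36.6% were called higher and 36.9% lower, so the number of calls is not particular to the list. The higher genes were Tspan2 (1.71, standard error 0.11, adjusted p = 9.63e-09), Ermn (1.39), Ugt8a (1.36), Cnp (0.41) and Mal (0.34). The lower genes were Mobp (−1.42, standard error 0.10, adjusted p = 1.97e-08), Mbp (−0.49) and Mag (−0.27). Mog gave −0.13 with a 95% interval of −0.35 to 0.09 and was not called (adjusted p = 0.272). With a fold limit of 2, Tspan2, Ermn and Ugt8a were higher and Mobp was lower, against 13.3% and 17.5% of all genes. Mag was not called without the RNA-Seq library of mouse B (−0.17, adjusted p = 0.171) or without the footprints of mouse A (−0.11, adjusted p = 0.358), nor Mal without the RNA-Seq library of mouse A (0.18, adjusted p = 0.125).

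The wider set of oligodendrocyte genes also lay on both sides of the typical gene, from −2.33 for Hapln2, below the lowest member, to 1.34 for Tppp, below the highest members. Of 46 tested, 13 had a TE called higher and 14 lower, with a median of −0.01 against −0.0051 over all genes. Among the membrane and junction genes 5 were higher, namely Cntn2 (0.71), Cldn11 (0.65), Omg (0.53), Cd9 (0.29) and Nfasc (0.21). In that list 2 were lower, the connexin gene Gjc3 (−0.93) and Pllp (−0.36). Among the lipid and metabolite enzymes Elovl7 (1.06), Aspa (0.71), Car2 (0.49) and Gpd1 (0.25) were higher, while Gal3st1 (−1.73), which sulfates the galactosylceramide that Ugt8a makes, and Cers2 (−0.31) were lower. In this test Ugt8a and Gal3st1, the enzymes of consecutive steps of sulfatide synthesis, were on opposite sides of the typical gene. The Gal3st1 value rests on few footprints, however, and Gal3st1, unlike Ugt8a, was not called lower in IP (−0.16). Of the other mature oligodendrocyte genes 4 were higher, Tppp (1.34), Apod (0.65), Tmem88b (0.64) and Ndrg1 (0.47), and 7 were lower, Hapln2 the most of all. The transcription factors Nkx6-2 (−0.96), Myrf (−0.68) and Sox10 (−0.54) were lower and none was higher. Among the transcription factors the highest value was that of Tcf7l2 (0.45, adjusted p = 0.0689 in the same edgeR test). Gal3st1, Hapln2 and Nkx6-2 passed the filter on low counts here, where RNA-Seq and footprints are averaged together. They did not pass it for footprints alone over mice A to D, so their low TE values rest on few footprints.

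As a share of each library, the myelin genes took a similar part of RNA and of footprints. Together they held 0.180% to 0.218% of CDS counts in the RNA-Seq libraries of mice A to D and 0.166% to 0.209% in the footprints. In the input libraries of mice E and F the share was 0.170% and 0.155%, and in IP it was 0.0167% and 0.0165%. The makeup differed, however. Mbp made up 46.1% to 48.4% of the members' RNA-Seq counts in mice A to D and 34.3% to 35.1% of their footprints, ranges that did not overlap. In bulk tissue, fewer cells of a type and less RNA per cell cannot be told apart, and this holds for every level given here.

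Levels of the members also moved together between mice of the same group. RNA-Seq counts over size factors were higher in mouse B than in mouse A for all 9 genes, by a median of 0.19 on the log2 scale, and higher in mouse D than in mouse C for 8 of 9. Footprints were higher in mouse D than in mouse C for all 9, by a median of 0.23, but higher in mouse B than in mouse A for only 5. The summed normalized CDS counts of the 9 genes were 13220 and 14800 in the RNA-Seq libraries of mice A and B and 12700 and 14510 in those of mice C and D. The RNA sums thus differed more within each group than the 2 groups did on average. The footprint sums were 12790 and 13360 in mice A and B and 12420 and 14910 in mice C and D.

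AZD-8055 was given to ask which transcripts lose translation when mTOR is inhibited for a short time. None of the 9 myelin genes passed the test for a change in TE, in RNA or in footprints. The TE change ranged from −0.25 for Ermn to 0.48 for Tspan2, and the RNA changes were all small and negative, from −0.12 for Ugt8a to −0.04 for Mog. In edgeR's quasi-likelihood tests 0.305% of 11797 genes were called for TE (with a fold over 2), 0.148% of 12182 for RNA and 1.03% of 10695 for footprints. At an unadjusted p under 0.05 the members gave 1 gene for TE, 0 for RNA and 2 for footprints, where 6.75%, 8.24% and 12.8% of all genes tested did so, and DESeq2's Wald test called 0 in each.

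Tspan2 had the largest change. Its footprints over size factors were 927 and 1132 in mice A and B and 1211 and 1462 in mice C and D, while its RNA-Seq counts were 303 and 337 against 282 and 324. Footprints did not overlap between the groups and RNA did. The log2 TE accordingly was 1.61 and 1.75 in vehicle and 2.10 and 2.18 after AZD-8055, a fitted change of 0.48 with a 95% interval of 0.10 to 0.86 that did not pass the adjustment (edgeR adjusted p = 0.537, Benjamini-Hochberg). With mouse as a block, since RNA and footprints of a mouse are paired, the change was 0.47 and its edgeR adjusted p was 0.0488, as for 1.25% of all genes below 0.05 in that fit, and its fold stayed under 2, so the gene was not called. Over the other alternatives the adjusted p of Tspan2 was 0.247 to 1.0 (edgeR or DESeq2). The footprint change was 0.39 (edgeR adjusted p = 0.271).

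Ermn differed in the other direction. Its footprints were 699 and 682 in vehicle and 547 and 549.8 after AZD-8055, and its RNA-Seq counts were 265 and 277 against 244 and 271. The footprint change of −0.33 had a 95% interval of −0.52 to −0.13 (edgeR adjusted p = 0.167), and the TE change of −0.25 had one of −0.54 to 0.03. Ermn and Tspan2, next to each other in the vehicle order, were thus 0.22 and 0.45 apart in mice A and B and 0.94 and 1.16 apart in mice C and D.

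For the other members the intervals lay on both sides of 0. Mbp footprints were 4485 and 4649 in vehicle and 4253 and 5236 after the drug, and its TE change was 0.11 (95% interval −0.18 to 0.40). Mobp footprints were 439.6 and 489 against 327 and 484, with a TE change of −0.07 (−0.52 to 0.38). Mouse C was the lower of the treated mice for footprints of all 9 genes, and its footprint library was the shallowest, with 3503873 CDS counts. The TE change was 0.21 for Mag (−0.14 to 0.57), 0.16 for Cnp (−0.16 to 0.47), −0.05 for Mal (−0.38 to 0.27), −0.08 for Mog (−0.46 to 0.31) and −0.09 for Ugt8a (−0.40 to 0.23). No interval for TE reached a log2 change of 1 in either direction.

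**Figure D4:**
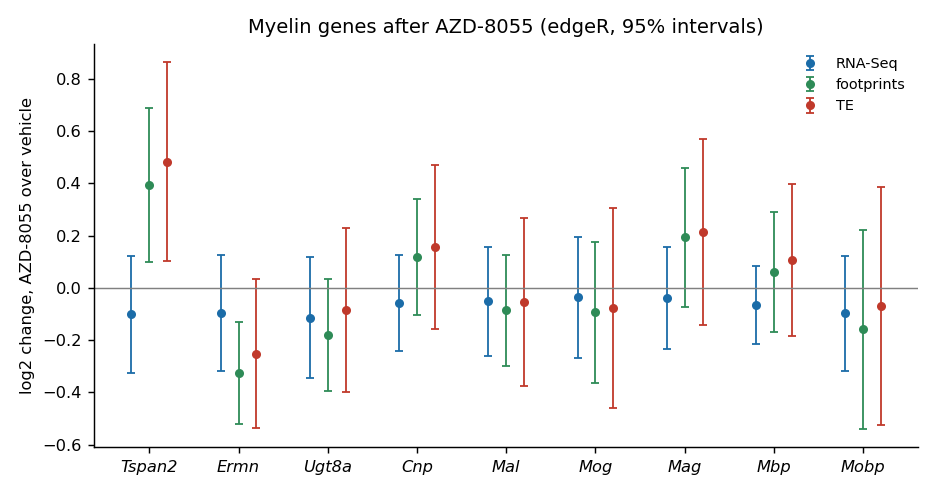
Log2 change after AZD-8055 against vehicle for RNA-Seq, footprints and TE of each myelin gene, from edgeR fits with 95% intervals. All intervals for RNA include 0; the footprints of Tspan2 and Ermn and the TE of Tspan2 are the values whose interval does not, and none passed the adjustment over all genes.

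The values of the treated and the vehicle mice did not overlap for the RNA of 0 members, for the footprints of 4 (Mal, Ermn, Ugt8a and Tspan2) and for the TE of 4 (Mbp, Mag, Ermn and Tspan2). Over all genes the groups did not overlap for 39.5% in RNA, 39.5% in footprints and 37.2% in TE, so the members are near the background for footprints and TE and below it for RNA. The footprint result depended on the treated mouse kept. Without mouse C, 4 members were called higher by edgeR, namely Tspan2 (0.54), Mag (0.32), Cnp (0.27) and Mbp (0.22), among 355 genes called higher and 482 lower over the whole table. Without mouse D, Mobp was called lower (−0.52), among 77 genes called higher and 188 lower of 10737. Each of these fits leaves a lone treated library, whose spread is taken from the vehicle mice. Of the other oligodendrocyte genes, 0 of 46 were called for TE, 0 of 46 for RNA and 0 of 43 for footprints; the furthest TE values were 0.64 for Ppp1r14a and −0.72 for Elovl7.

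Across all 12 CDS libraries, the 8 genes outside the list with the highest Pearson correlation with the mean profile of the members were Aldoc (0.998), Ndrg2 (0.998), Cyp2j9, Pla2g7, Hspb8, Slc1a3, Gpc5 and Mlc1 (0.995 for the last), among 12014 genes. Aldoc encodes an aldolase and Slc1a3 a glutamate transporter, and both are in the astrocyte list. These points share the 2 IP libraries, where all of these genes are low. Of the members, Mal followed the mean profile most closely (0.998) and Mobp least (0.726), followed by Tspan2 (0.92), the genes at the bottom and the top of the TE order. The profile spans RNA-Seq and footprint libraries, so a TE far from that of the other members itself lowers this correlation. The match with the TE order is therefore not a separate observation.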

How the data were processed

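The authors deposited raw read counts per gene, without normalization, for CDS (12 libraries) and for exons (the 8 RNA-Seq libraries). The submitters' processing notes name Bowtie2, TopHat2, HTSeq and the mm10 genome, with versions not given in the sources used here; per the methods, HTSeq counted in strict intersection mode. Here, genes averaging 37 counts or more over the libraries of a fit were tested with edgeR 4.0.16 (quasi-likelihood, TMM, Benjamini-Hochberg) in R 4.3.3, with DESeq2 1.42.0 as an alternative; the TE change was the interaction of assay and treatment. TE needed 75 counts over both mice. Standard errors were taken from the F statistic. The scripts were tested on simulated data. Members and gene lists were chosen with earlier results of these data known. All 9 members are described; of each list, the highest and lowest gene and called genes numbering 5 or fewer in a direction, and the 8 genes most like the members. Likeness used log2 CPM with a pseudocount of 0.5. Mouse letters in the labels pair the libraries: across genes, differences between mice E and F correlated at 0.548 between input and IP, those between A and B at 0.243 and between C and D at 0.197 between RNA-Seq and footprints. Symbols turned into dates (27, holding 0.350% of CDS counts) were left as they stand. Promoters and positions are from RefSeq, GRCm38.p6, where 8 of 9 members matched, and the motif was chosen after values were known. Intervals rest on a spread between libraries that edgeR moderates over all genes. Fits without a mouse block treat the libraries of a mouse as independent.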

Additional observations from a re-analysis of the deposited data

How the results depend on the processing

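The count of 9 members lower and 0 higher in IP was the same under every alternative tried, including CDS counts, no filter on low counts, DESeq2 and mouse as a replicate block (9 members lower). With the block the baseline TE calls stayed at 5 higher and 3 lower and the TE change calls at 0, where the fold limit kept out Tspan2 (0.47, edgeR adjusted p = 0.0488). Over all genes the block moved the TE change calls from 1 higher and 35 lower to 7 and 36. The block left 1 residual degree of freedom for IP, 1 for baseline TE and 2 for the TE change. After moderation by edgeR the median totals were 56.75, 11890 and 22.99. Block calls for baseline TE thus rest almost wholly on a spread shared over genes, and are a weak check of the pairing. A fold limit of 2 on baseline TE left 3 members higher and 1 lower. Without a count filter Mal was not called for baseline TE (0.23, adjusted p = 0.0628 from edgeR). TE from CPM values lowered the log2 values by about 0.1, for instance to −1.54 for Mobp and 1.58 for Tspan2. Leaving out each replicate in turn gave 0 to 4 members higher and 0 to 1 lower for footprints after AZD-8055.

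Small drug changes turned sign when a library was left out. The TE change ranged from −0.21 to 0.059 for Mog, −0.26 to 0.026 for Mobp, −0.21 to 0.066 for Mal and −0.23 to 0.052 for Ugt8a. The RNA change ranged from −0.22 to 0.12 for Mog, −0.18 to 0.037 for Mbp, −0.28 to 0.062 for Mobp, −0.18 to 0.093 for Mag, −0.19 to 0.10 for Cnp, −0.21 to 0.14 for Mal, −0.22 to 0.0058 for Ugt8a and −0.21 to 0.00093 for Tspan2, and exon counts gave 0.0042 for Mog. The footprint change ranged from −0.25 to 0.030 for Mog, −0.13 to 0.22 for Mbp, −0.52 to 0.10 for Mobp, −0.057 to 0.27 for Cnp and −0.20 to 0.0048 for Mal. The cause was not tested.

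Over all genes, counts (higher and lower) also moved with the setting. For IP they were 1545 and 2888 against 4463 and 4731 without a fold limit and 2493 and 3187 on CDS counts. For baseline TE they were 4349 and 4389 against 1587 and 2078 with a fold limit. For the TE change they were 1 and 35 against 9 and 93 without a fold limit and 13 and 44 without a filter. For RNA they were 7 and 11 against 30 and 48 without a filter and 7 and 21 with DESeq2, and for footprints 5 and 105 against 60 and 204 without a filter, 9 and 105 with DESeq2 and 3 and 97 with a minimum mean of 10 counts. Leaving out a library gave 0 to 4 higher and 27 to 37 lower for the TE change, and 3 to 13 and 10 to 29 for RNA. For footprints it gave 2 and 80 without mouse A, 3 and 61 without mouse B, 355 and 482 without mouse C and 77 and 188 without mouse D. With 2 mice per group, footprint depth limits what could be seen for members with few footprints, such as Mog and Mobp (153 to 536 counts in a library).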
